A study of Mus musculus with 6 samples.

Results

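The genes described here are Zdhhc21, Zdhhc5 and Zdhhc18, which encode palmitoyltransferases, measured in Melan-a, a pigmented melanocyte cell line derived from C57BL/6 mice. Members were found as transcript clusters of the array whose annotation gives 1 of these symbols, and each of the 3 had 1 cluster, out of 7661 genes with a cluster. Cells carried either an siRNA against Dicer (siDicer, 3 arrays) or a control siRNA (siScr, 3 arrays). Replicates 1, 2 and 3 of both groups came from cells at passage 47, 54 and 56. The titles give a time of 48 h, although the treatment protocol adds up to a shorter time after transfection. All cultures of both groups were female C57BL/6 Melan-a cells grown with the phorbol ester TPA. All were transfected with a lipid reagent plus magnetic particles, so that no untransfected culture enters the comparison. An siRNA lowers its target for a limited time and to a degree that could not be checked, because Dicer1 was not analysed here.

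Palmitoyltransferases, also called DHHC enzymes after a motif in their active site, attach the fatty acid palmitate to cysteines of other proteins through a thioester bond. The bond is reversible, since thioesterases remove the palmitate again, and the cycle moves signalling proteins such as Ras and Src family kinases on and off membranes. Zdhhc21 is the gene mutated in the depilated mouse, in which hair follicle differentiation is disturbed, and the Src family kinase Fyn is a known substrate of its product. Zdhhc5 encodes an enzyme of the plasma membrane known to act on flotillin 2, and Zdhhc18 encodes an enzyme of the Golgi known to act on H-Ras.

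Values are log2 signals per transcript cluster, so that a difference of 1 is a doubling of signal, and a level of one gene cannot be set against that of another. The 6 array medians ran from 4.63 to 4.68, and the lowest correlation between 2 arrays was 0.993. The clusters covered chromosomes 1 to 4. Of 14 melanocyte markers 5 had a cluster, with mean log2 levels of 6.58 (Mreg) to 12.83 (Tyrp1), and 4 of these 5 lay above 10. The highest marker of keratinocytes was at 6.90, of fibroblasts at 6.32, of leukocytes at 5.50 and of endothelial cells at 5.44. The summed linear signal of the melanocyte markers was 10048 to 12131 in siDicer and 10717 to 13319 in siScr. The sums of the other cell types were as follows in siDicer and siScr: 255 to 273 and 247 to 289 for 6 keratinocyte markers, 171 to 212 and 171 to 204 for 4 fibroblast markers, 227 to 240 and 226 to 247 for 9 leukocyte markers, and 87 to 91 and 87 to 94 for 4 endothelial markers. As levels of different genes cannot be compared, these values do not rank the cell types, and each sum serves only to compare the groups. For each of the 5 marker lists the ranges of the groups overlapped. Within passages the melanocyte sum was lower in siDicer each time, at 12131 against 13319 in siScr at passage 47, 10048 against 10717 at passage 54 and 11840 against 12112 at passage 56. Of the 5 markers Slc24a5, a melanosomal exchanger, had the largest difference, -0.30, -0.22 and -0.24 at the 3 passages. Slc24a5 did not pass (limma, adjusted p = 0.804, and 0.14 with passage as a block). In siDicer 4 of the 5 markers had a lower mean, and Mreg was higher at each passage (0.077, 0.15 and 0.090). Tyrp1, the brightest of the 5 and so the largest part of the sum, differed by -0.11, -0.088 and 0.052. The part of these markers in the differences below was not tested.

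The start regions of the 3 genes are printed to show where their transcripts begin and which common promoter letters lie there. They run from 250 bases before to 50 bases after the RefSeq start, on the GRCm38.p6 build, 5′ to 3′ on the minus strand. Capitals mark 4 motifs, searched on both strands. They are the GC box, whose letters are GGGCGG, the CCAAT box, the E-box with the letters CACGTG, and the core of the M-box, a motif bound by Mitf in melanocytes, with the letters CATGTG. Overlapping matches were each counted.
Zdhhc21, chr4:82859624-82859923: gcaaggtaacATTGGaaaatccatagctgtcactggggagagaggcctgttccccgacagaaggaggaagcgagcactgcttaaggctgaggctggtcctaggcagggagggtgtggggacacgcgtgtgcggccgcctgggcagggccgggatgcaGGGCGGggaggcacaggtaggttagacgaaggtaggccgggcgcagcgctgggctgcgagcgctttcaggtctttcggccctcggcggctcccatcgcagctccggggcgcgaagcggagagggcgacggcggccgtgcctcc
Zdhhc5, chr2:84715115-84715414: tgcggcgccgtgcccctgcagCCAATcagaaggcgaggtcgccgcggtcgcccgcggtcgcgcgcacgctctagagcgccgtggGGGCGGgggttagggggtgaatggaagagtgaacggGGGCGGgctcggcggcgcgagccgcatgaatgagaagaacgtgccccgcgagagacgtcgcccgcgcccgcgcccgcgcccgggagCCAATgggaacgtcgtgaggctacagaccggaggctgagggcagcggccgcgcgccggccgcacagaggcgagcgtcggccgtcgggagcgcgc
Zdhhc18, chr4:133633380-133633679: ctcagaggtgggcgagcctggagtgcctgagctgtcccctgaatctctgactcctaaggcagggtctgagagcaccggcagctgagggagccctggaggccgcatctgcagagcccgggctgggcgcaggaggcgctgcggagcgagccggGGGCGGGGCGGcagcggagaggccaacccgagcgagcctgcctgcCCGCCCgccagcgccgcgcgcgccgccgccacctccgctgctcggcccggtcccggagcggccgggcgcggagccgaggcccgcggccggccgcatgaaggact

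The region of Zdhhc21 held 1 GC box and 1 CCAAT box, that of Zdhhc5 held 2 and 2, and that of Zdhhc18 held 3 GC boxes and 0 CCAAT boxes. The E-box and the M-box core occurred 0 times in each of the 3 regions. Among 27025 mouse genes with such a region, 35.9% had a GC box, 37.9% a CCAAT box, 7.24% the E-box and 14.1% the M-box core. The number of CpG dinucleotides was 26 for Zdhhc21, 52 for Zdhhc5 and 36 for Zdhhc18, against a median of 7. The arrays measure transcripts and not promoters, and these letters describe the sequence only.

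Zdhhc21 was lower in siDicer than in siScr cells on every array. Its log2 signal (cluster TC0400002942.mm.1, chromosome 4) was 7.51, 7.52 and 7.61 in siDicer at passages 47, 54 and 56. In siScr it was 8.04, 8.18 and 8.07 at the same passages. The groups did not overlap, which held for 14.5% of all tested genes. The highest siDicer array and the lowest siScr array were 0.43 log2 units apart. The spread within a group was small beside this gap, with a mean of 7.55 ± 0.053 in siDicer and 8.10 ± 0.073 in siScr (SD, n = 3). The difference, siDicer minus siScr, was -0.55 ± 0.069 (SE, limma), which is 68.4% of the siScr signal or a 1.46-fold difference. Its 95% interval ran from -0.71 to -0.39. The gene was chosen by this difference, so its size, interval and gap describe the gene and are no test.

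The difference of Zdhhc21 had the same sign within each passage, -0.53 at passage 47, -0.66 at passage 54 and -0.46 at passage 56. It was larger at passage 54, where the siScr array was the highest of its group, and each passage has only 1 array per group. Because the difference chose the gene, the following too is a description and not a test. In the limma fit over all 5363 genes above the lowest 30% of signal, Zdhhc21 had an adjusted p of 0.0845 without a block and 0.0228 with passage as a block. Without the block 1 gene passed the threshold of 0.05 (0.0186% of genes), which was not Zdhhc21, and the count was 0 without siDicer replicate 3 and 2 without siScr replicate 2. With the block the number was 93 (1.73%), made up of 61 that were higher in siDicer (1.14%) and 32 that were lower (0.597%), Zdhhc21 among them. Leaving out passage 47, 54 or 56 from that fit gave 3, 19 and 153 genes, and adjusted p-values of 0.163, 0.0696 and 0.00915 for Zdhhc21. With a passage left out few arrays remain to estimate each gene's error, so these counts and p-values are uncertain. With array weights and no block 14 genes passed and Zdhhc21 had an adjusted p of 0.0325. The groups did not overlap for 777 genes (14.5%), 358 higher (6.68%) and 419 lower (7.81%). Ordered by the size of the difference, Zdhhc21 was the 12th lowest of 5363. In bulk RNA, fewer cells that carry a transcript and less of it per cell cannot be told apart.

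Zdhhc5 had nearly the same signal in both groups. Its log2 signal (cluster TC0200003874.mm.1, chromosome 2) was 9.06, 9.06 and 9.09 in siDicer and 9.04, 9.05 and 9.11 in siScr at passages 47, 54 and 56. The groups overlapped, and the highest array of each group was that of passage 56. The means were 9.07 ± 0.016 in siDicer and 9.07 ± 0.038 in siScr (SD, n = 3). The difference was 0.0031 ± 0.061 (SE, limma), with a 95% interval of -0.14 to 0.14. By passage it was 0.027, 0.0041 and -0.022. The gene Med19, which encodes a Mediator subunit, overlaps Zdhhc5 in the RefSeq annotation and differed by 0.021. Whether probes of one read transcripts of the other was not tested.

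Zdhhc18 was higher in siDicer at passages 47 and 54 and lower at passage 56. Its log2 signal (cluster TC0400003708.mm.1, chromosome 4) was 7.92, 7.92 and 7.76 in siDicer and 7.64, 7.74 and 7.84 in siScr. The groups overlapped through passage 56, where siDicer had its lowest array and siScr its highest. The means were 7.87 ± 0.090 in siDicer and 7.74 ± 0.097 in siScr (SD, n = 3). The difference was 0.13 ± 0.080 (SE, limma), with a 95% interval of -0.058 to 0.31, and by passage it was 0.28, 0.18 and -0.075. Without siScr replicate 1 it was 0.077. Zdhhc5 and Zdhhc18 had limma adjusted p-values of 0.997 and 0.74, given here as a description too.

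**Figure D1:**
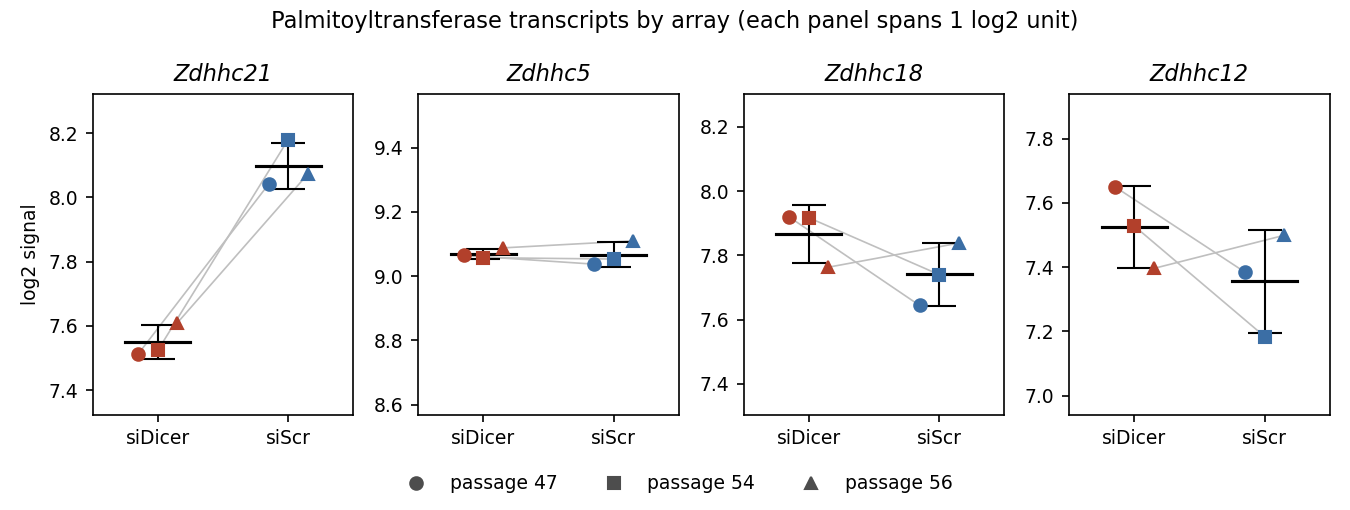
Log2 signal (y axis) of Zdhhc21, Zdhhc5, Zdhhc18 and Zdhhc12 on the 3 siDicer and 3 siScr arrays, with grey lines joining arrays of one passage, horizontal bars for means and error bars for the SD. The 2 groups are apart for Zdhhc21 (means 7.55 and 8.10) and overlap for the other 3 genes.

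Variation between passages was not used to choose the genes and could be tested. Each passage was also 1 replicate number, so passage cannot be told apart from other differences between replicates. The mean of the siDicer and the siScr array of a passage was 7.78, 7.85 and 7.84 for Zdhhc21 at passages 47, 54 and 56, a range of 0.075. For Zdhhc5 it was 9.05, 9.06 and 9.10, and for Zdhhc18 it was 7.78, 7.83 and 7.80, with ranges of 0.048 and 0.047. The median range over all tested genes was 0.13. In limma's F-test of passage, with siRNA in the model, 99 of 5363 genes passed (1.85%) and 0 of the 3 palmitoyltransferase genes did. At this share 0 of 3 is no result about so few genes. When siDicer replicate 1, 2 or 3 was left out the count over all genes was 13, 18 and 260, and when siScr replicate 1, 2 or 3 was left out it was 28, 33 and 311. The lowest adjusted p of the 3 genes in these fits was 0.514 (Zdhhc18). Their adjusted p-values were 0.834, 0.909 and 0.955, and their unadjusted p-values were 0.626, 0.79 and 0.893 for Zdhhc21, Zdhhc5 and Zdhhc18 in that fit over all genes.

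**Figure D2:**
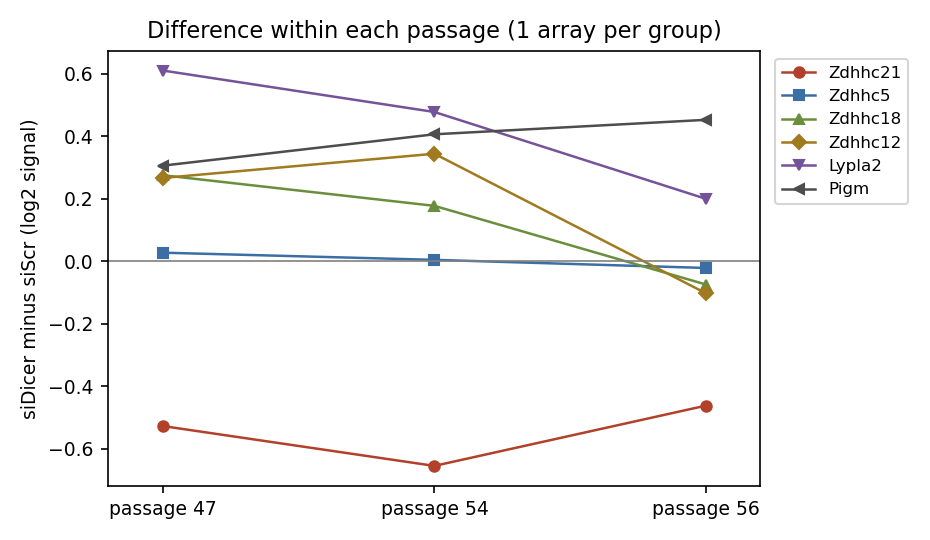
Difference in log2 signal, siDicer minus siScr (y axis), at passages 47, 54 and 56 (x axis), each from 1 array per group, for the 3 genes and for Zdhhc12, Lypla2 and Pigm. Zdhhc21 lies between -0.66 and -0.46 at all passages, and Zdhhc18 and Zdhhc12 are above 0 at passages 47 and 54 and below 0 at passage 56.

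Of 24 listed palmitoyltransferase genes 4 had a cluster, and the one not yet described was Zdhhc12, whose product is known to palmitoylate the scaffold protein gephyrin. Zdhhc12 had log2 signals of 7.65, 7.53 and 7.40 in siDicer and 7.38, 7.18 and 7.50 in siScr. The groups overlapped, and the sign turned at passage 56 as it did for Zdhhc18. The difference was 0.17 ± 0.10 (SE) and did not pass (limma, adjusted p = 0.715). Without siScr replicate 2 it was 0.083 and without siDicer replicate 1 it was 0.11. Of the 4 genes, 3 were higher and 1 lower in siDicer, with a median of 0.064 against -0.0092 over all tested genes, and with 1 array left out the median ran from 0.033 (without siScr replicate 1) to 0.099 (without siScr replicate 3). The others were not analysed here, and 0 of 3 listed partner proteins of these enzymes (Golga7, Golga7b and Selenok) had a value here.

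Enzymes that remove palmitate from proteins showed one sizeable difference. Lypla2, which encodes the cytosolic thioesterase APT2, had log2 signals of 8.65, 8.50 and 8.43 in siDicer and 8.04, 8.02 and 8.24 in siScr. All 3 siDicer arrays lay above all siScr arrays, and a separation in this direction held for 6.68% of all tested genes. The means were 8.53 ± 0.11 in siDicer and 8.10 ± 0.12 in siScr (SD, n = 3). The difference was 0.43 ± 0.089 (SE) and did not pass (limma, adjusted p = 0.21, and 0.0715 with passage as a block). By passage it was 0.61, 0.48 and 0.20. With the block it rose after median centring of the arrays (limma, adjusted p = 0.0301). It also rose when passage 56 was left out (limma, adjusted p = 0.0141), where few arrays remain to estimate error. Over the 2 other passage omissions, no filter and quantile normalisation the adjusted p with the block was 0.0848 to 0.349.

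Lypla1, which encodes the related thioesterase APT1, ran the other way. Its log2 signal was 7.47, 7.57 and 7.60 in siDicer and 7.74, 7.61 and 7.68 in siScr, so that the groups were separated by a narrow margin. The difference was -0.13 ± 0.070 (SE) and did not pass (limma, adjusted p = 0.685). Ppt1, a lysosomal thioesterase that frees palmitate from proteins under breakdown, differed by 0.10 and Lyplal1, a related hydrolase, by -0.11, with adjusted p-values of 0.789 and 0.869 in limma. Without siScr replicate 2 Ppt1 was at 0.037 and Lyplal1 at -0.21, and without siDicer replicate 1 Lyplal1 was at -0.012. Of 10 listed depalmitoylating enzymes 4 were tested, 2 higher and 2 lower with a median of -0.0048, which ran from -0.063 without siScr replicate 2 to 0.057 without siDicer replicate 1. Groups did not overlap in 2 of these 4, 1 higher and 1 lower, where the share over all tested genes was 14.5%. In this list 0 passed with the block (1.73% of all tested genes) or without it (0.0186%). At these shares a count of 0 is no result about so few genes.

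Genes for other lipid attachments to proteins included 1 that passed with passage as a block. Pigm, which encodes the enzyme that adds the first mannose to the GPI anchor, had log2 signals of 7.60, 7.43 and 7.67 in siDicer. In siScr it had 7.30, 7.02 and 7.22. The groups did not overlap, and the difference was 0.31, 0.41 and 0.45 at passages 47, 54 and 56. With passage as a block Pigm rose by 0.39 ± 0.063 (SE, limma, adjusted p = 0.0346), and without it the adjusted p was 0.254. With the block it was 0.165, 0.145 and 0.0466 when passage 47, 54 or 56 was left out, and 0.0573 with dim genes kept in. Few arrays remain to estimate error when a passage is left out. Of the GPI transamidase, which transfers the anchor to proteins, the subunits Pigk and Pigt differed by 0.21 and 0.27, without overlap of the groups, and did not pass (limma, adjusted p = 0.322 and 0.582). Pigt was at 0.17 without siDicer replicate 1 and at 0.18 without siScr replicate 2.

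The Rab escort protein gene Chml differed by -0.14. Dpm3, a subunit of the synthase that makes the mannose donor of GPI anchors, differed by -0.095 without overlap of the groups. Chml was at -0.065 without siDicer replicate 1. Neither of the 2 passed (limma, adjusted p = 0.688 and 0.728). Of 41 listed genes of this kind 15 were tested, 9 higher and 6 lower, with a median of 0.021 and a range of -0.15 to 0.39. With 1 array left out the median ran from 0.0044 (without siScr replicate 2) to 0.048 (without siScr replicate 3). In 4 of the 15 the groups did not overlap (14.5% of all tested genes), 3 of them higher in siDicer (6.68%), and with passage as a block 1 passed (1.73%).

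Genes that supply or handle fatty acyl-CoA, the donor of palmitate, differed by at most 0.18. Mecr, an enzyme of mitochondrial fatty acid synthesis, differed by 0.18 ± 0.058 (SE) with groups that did not overlap. Acbd5, a peroxisomal acyl-CoA binding protein, differed by -0.17, also without overlap. Dbi, the acyl-CoA binding protein of the cytosol, differed by 0.18 with overlap. The thioesterase Acot7 differed by 0.12 and the elongase Elovl1 by 0.079. None of these 5 passed (limma, adjusted p from 0.415 to 0.916). Leaving out 1 array brought Acbd5 to -0.10 (siDicer replicate 1), and Dbi to 0.093, Acot7 to 0.058 and Elovl1 to -0.021 (siScr replicate 2). Of 34 listed genes 13 were tested, 8 higher and 5 lower, with a median of 0.021 that ran from -0.0078 without siScr replicate 2 to 0.046 without siScr replicate 3. Groups did not overlap in 2 of the 13 (15.4%), 1 higher and 1 lower, against 14.5% of all tested genes. Here too 0 passed with the block (1.73% of all tested genes) or without it (0.0186%).

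Among genes of proteins known to carry palmitate, Nras, a Ras GTPase, had log2 signals of 8.61, 8.61 and 8.62 in siDicer and 8.53, 8.46 and 8.49 in siScr. Its groups did not overlap, and the difference of 0.12 ± 0.061 (SE) did not pass (limma, adjusted p = 0.662). Cdc42, a GTPase with a palmitoylated splice form, differed by -0.19, and Dnajc5, the synaptic vesicle cochaperone known as cysteine string protein, by 0.16, both without overlap. Cd44, the hyaluronan receptor, differed by 0.16 and Rgs16, a regulator of G protein signalling, by 0.18. None of these 4 passed (limma, adjusted p from 0.463 to 0.832). Cd44 was at 0.096 without siScr replicate 2, and Rgs16 was at 0.024 without siDicer replicate 2 and at 0.077 without siScr replicate 3. Of 40 listed genes 15 had a cluster and 14 were tested, 9 higher and 5 lower, with a median of 0.0036 that ran from -0.012 without siScr replicate 2 to 0.029 without siScr replicate 1. Groups did not overlap in 3 of the 14 (21.4%), 2 higher and 1 lower, against 14.5% of all tested genes. Again 0 passed with the block (1.73% of all tested genes) or without it (0.0186%). Fyn and Hras, named above as substrates, were not analysed here.

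Over the 6 lists together, without the 3 palmitoyltransferase genes, 47 genes were tested, 29 higher and 18 lower, with a median of 0.021. Groups did not overlap in 11 of them, or 23.4%, against 14.5% of all tested genes, with 7 higher and 4 lower. With passage as a block 1 of the 47 passed (Pigm), against 1.73% of all tested genes, and without it 0 did, against 0.0186%. An unadjusted p under 0.05 in limma was reached by 7 of the 47 without the block, against 8.52% of all tested genes, and by 10 with it, against 13.8%. The lists were chosen with earlier results of these data known. These shares are therefore a description, and whether they exceed those of all tested genes was not tested.

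**Figure D3:**
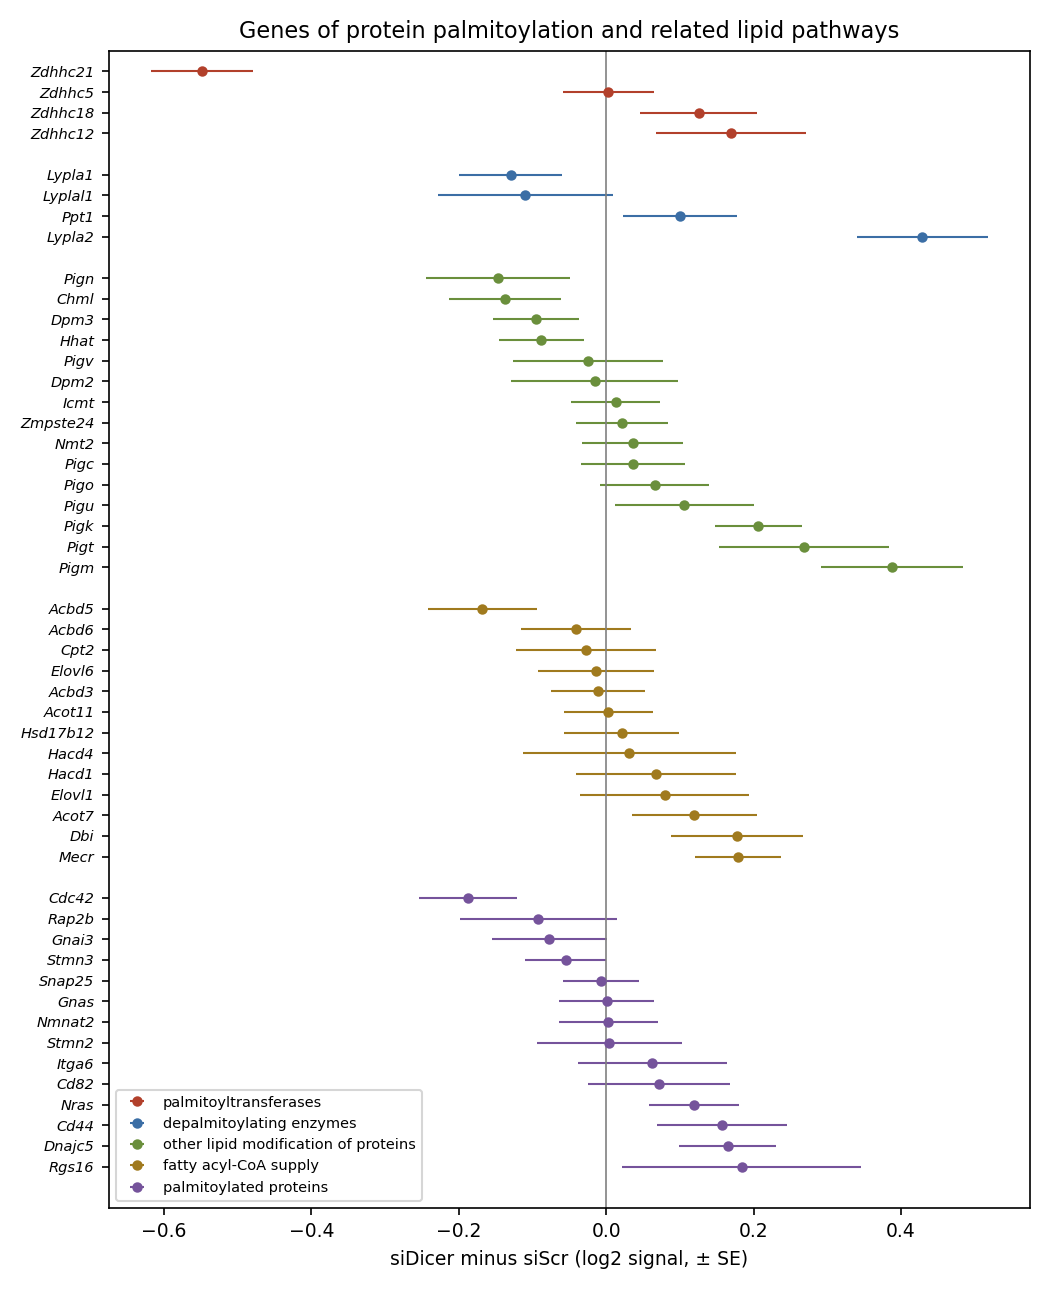
Difference in log2 signal, siDicer minus siScr (x axis), with its SE from limma, for the 50 tested genes of the lists, grouped and coloured by list. Zdhhc21 at -0.55 lies farthest from 0, Lypla2 and Pigm are highest at 0.43 and 0.39, and the other points lie between -0.19 and 0.27.

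The 6 genes nearest to Zdhhc21 on its chromosome differed by -0.10 to 0.020. On one side, Gm11269, Gm11267 and Gm11266, which are noncoding RNA genes, differed by -0.070, -0.10 and 0.0080. On the other side were Cer1, a secreted antagonist of Nodal and BMP signals, Frem1, a basement membrane protein, and the pseudogene Gm24884. They differed by 2.4e-05, -0.00048 and 0.020. Of these 6 genes 2 passed the filter on dim signal, Gm11269 and Frem1, with mean log2 levels of 4.40 and 4.50 in siDicer and 4.47 and 4.50 in siScr. The other 4 had means of 3.43 or less in both groups, under the filter value of 4.15.

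The 6 neighbours of Zdhhc5 (Selenoh, Tmx2, Med19, Clp1, Ypel4 and Mir130a) differed by -0.083 to 0.11. Those of Zdhhc18 (Gpatch3, Gpn2, Sfn, Gm13213, Pigv and Gm25270) differed by -0.024 to 0.059. With passage as a block 0 of the 13 tested neighbours of the 3 genes passed, where 1.73% of all tested genes did, so a count of 0 among so few is no result about them. The groups were apart in 0 of these 13, against 14.5% of all tested genes, and this was not tested. They overlapped in the dim neighbours too. Whether the difference between Zdhhc21 and its neighbours exceeds error was not tested.

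**Figure D4:**
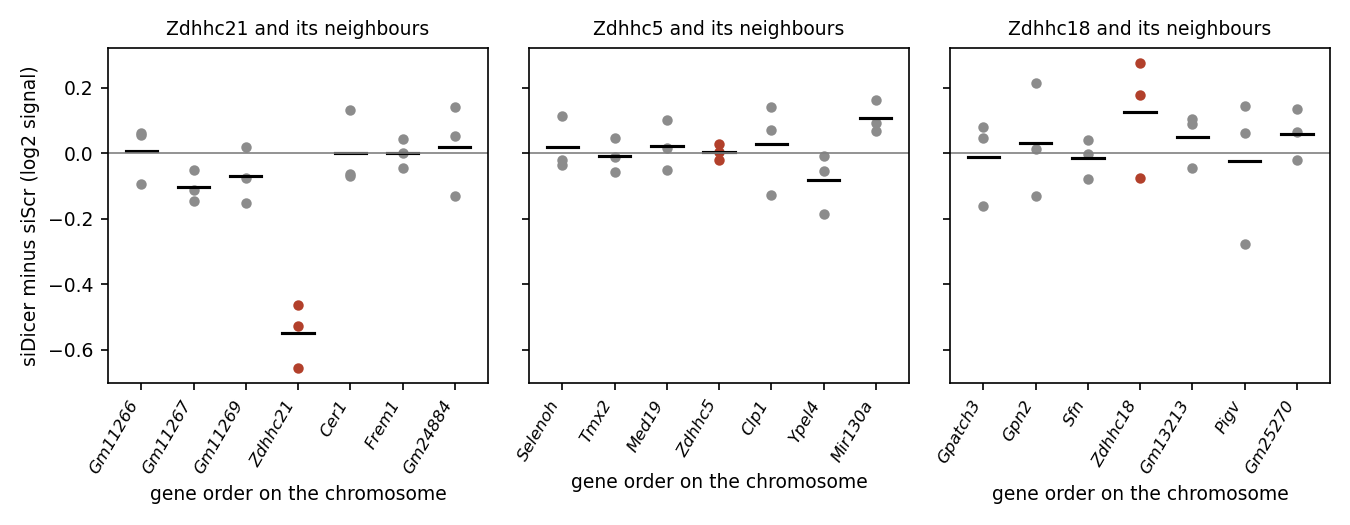
Difference in log2 signal, siDicer minus siScr (y axis), for each palmitoyltransferase gene (red) and the 3 genes with a cluster on each side in RefSeq gene order (grey), with a point per passage and a bar for the mean. The mean of Zdhhc21 is at -0.55, and the means of its 6 neighbours lie between -0.10 and 0.020.

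The genes whose pattern over the 6 arrays was most like that of Zdhhc21 among the 5362 other tested genes were Nop10, Xrn2, Fggy, Zfp292 and Gm23675. Their Pearson correlations were 0.987, 0.986, 0.985, 0.984 and 0.98 over 6 arrays, which are mainly the 2 groups, and they are the highest of 5362 comparisons. Nop10 encodes a protein of H/ACA small nucleolar ribonucleoproteins, Xrn2 a nuclear exoribonuclease, Fggy a carbohydrate kinase and Zfp292 a zinc finger protein, and Gm23675 is a pseudogene. The differences were -0.51 for Xrn2, -0.26 for Zfp292, -0.20 for Gm23675 and -0.15 for both Nop10 and Fggy. All 5 had groups that did not overlap, which the choice by likeness to Zdhhc21 favours.

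Zdhhc5 was most like Tmem183a, Ppp1r8 and Wdr78, with correlations of 0.978, 0.973 and 0.972. Zdhhc18 was most like Mov10, Mrpl23-ps1 and 4930487H11Rik, at 0.981, 0.972 and 0.965. Between the 3 palmitoyltransferase genes themselves the correlation was -0.037 for Zdhhc21 with Zdhhc5, -0.66 for Zdhhc21 with Zdhhc18 and 0.34 for Zdhhc5 with Zdhhc18. These values describe 6 arrays of 2 groups and carry no test.

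**Figure D5:**
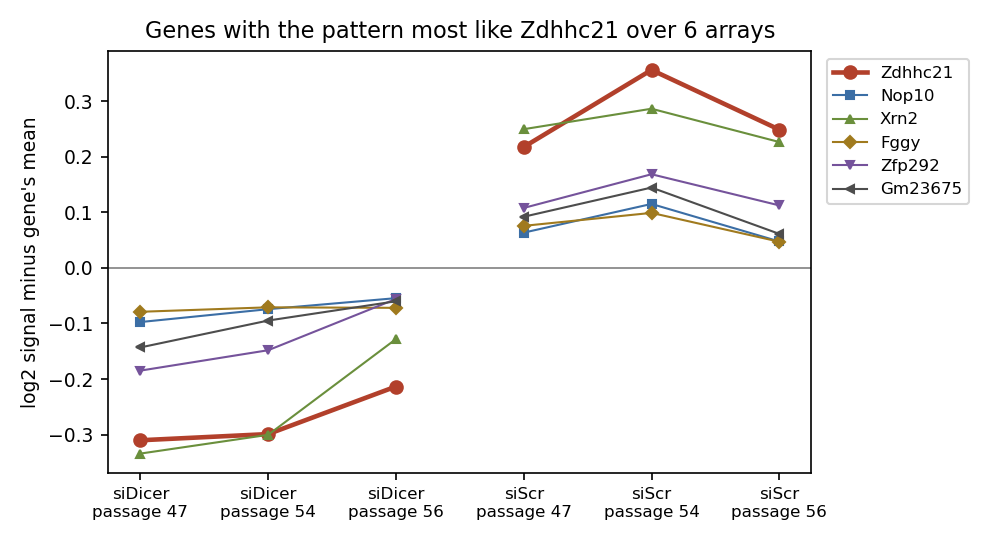
Log2 signal minus each gene's mean over 6 arrays (y axis) on the siDicer and siScr arrays by passage (x axis), for Zdhhc21 (thick red line) and the 5 tested genes with the highest Pearson correlation to it. All 6 genes are below their mean on the 3 siDicer arrays and above it on the 3 siScr arrays.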

How the data were processed

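Total RNA of Melan-a cells, 3 siDicer and 3 siScr samples, was hybridised to Affymetrix Clariom D mouse arrays, per the labels' protocols. The authors deposited 1 table of log2 signals per transcript cluster (16383 clusters, 0 missing values). The submitters' processing notes name Affymetrix Expression Console. How the table was normalised and annotated, and on which genome build, was not given in the sources used here. The log2 scale was inferred from the range of the values (1.70 to 13.70). Without scanner files, signal over background was not measured. Precision is limited by the number of arrays.

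The platform annotation, with synonyms merged through the RefSeq gene table (GRCm38.p6), gave 7717 clusters 1 gene, 268 several and 8398 none. Symbols were updated for 320 clusters, and all 7717 were found in that table. The cluster with the highest mean stood for a gene, and genes under the 30th percentile of mean signal (log2 4.15) were left out, leaving 5363 of 7661. The siDicer and siScr arrays were fitted in limma 3.58.1 under R 4.3.3 (lmFit, eBayes with trend, two-sided, Benjamini-Hochberg, threshold 0.05), tested on simulated data. Passage was tested with limma's moderated F-test in a model with siRNA. An exact permutation test of 3 against 3 arrays cannot go below p = 0.1 and was not used.

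Samples are paired by replicate number, because in the labels a number stands for 1 passage in both groups. The main fit leaves this pairing out, and SEs and adjusted p-values given without mention of a block come from it. With the block the SE was 0.065 against 0.090 for Dbi, 0.061 against 0.088 for Cd44 and 0.070 against 0.067 for Cdc42. Deviations from group means correlated at 0.42, 0.62 and 0.070 for replicates 1, 2 and 3. Between arrays of unlike number they correlated at -0.54 to 0.29. The siDicer array of replicate 3 was near 0 with every siScr array, at -0.030, -0.025 and 0.070 for siScr replicates 1, 2 and 3. The labels call the samples biological replicates. The 3 genes and the lists were chosen with earlier results of these data known. In the lists all tested palmitoyltransferases and depalmitoylating enzymes were named, up to 5 members of the others by smallest p, and any that passed in either fit. Likeness and neighbours were ranked as the text states. Alternatives were quantile normalisation, median centring, no filter, array weights, no trend, averaged clusters, passage as a block and leaving out arrays or passages. Start regions are RefSeq sequences, found for all 3 genes. The lists hold 152 genes, of which 51 had a cluster.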

Additional observations from a re-analysis of the deposited data

How the results depend on the processing

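Over 19 alternatives the difference of Zdhhc21 ran from -0.59 to -0.50 and that of Zdhhc5 from -0.012 to 0.025. That of Zdhhc18 ran from 0.051 to 0.23, with 0.23 reached with passage as a block and without replicate 3. With 1 array left out the ranges were -0.58 to -0.51 for Zdhhc21, -0.012 to 0.025 for Zdhhc5 and 0.077 to 0.18 for Zdhhc18. The limma adjusted p of Zdhhc21 ran from 0.00631 to 0.329.

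The count of genes that passed was 1, against 93 with passage as a block and 14 with array weights, and 0 to 2 with 1 array left out (0 without siDicer replicate 3). Some combinations with the block were chosen after seeing the data, and gave 125 with median centring, 22 with no filter on dim genes and 105 with quantile normalisation. The block without replicate 1, 2 or 3 gave 3, 19 and 153, from fits with few arrays to estimate error. Of the palmitoylation lists 0 genes passed in the fit without a block or with 1 array left out, 1 with array weights (Zdhhc21) and 2 with passage as a block (Zdhhc21 and Pigm), which changed no other call in the lists. With the block, 3 passed after median centring (with Lypla2), 1 with no filter and 2 after quantile normalisation. Without replicate 1, 2 or 3 the block gave 0, 0 and 4 list genes (the 4 with Lypla2 and Pigt). The count for passage was 99, against 165 with array weights, 202 after median centring, 58 with no filter and 13 to 311 with 1 array left out, and the lowest and highest were without siDicer replicate 1 and without siScr replicate 3.

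Of 22 other named genes in the same comparison, 13 moved by over 1.5 times with 1 array left out. The sign turned for Elovl1 with array weights (-0.027), without siDicer replicate 1 (-0.0037) and without siScr replicate 2 (-0.021). With 1 array left out, Elovl1 ran from -0.021 to 0.16. For Frem1, which lies at 0 within error, the sign turned with array weights (0.0033). It did so too with median centring (0.011) and quantile normalisation (0.014), each with or without the block. The same held for the block without replicate 2 (0.022), and without siDicer replicate 2 (0.012) or siScr replicate 2 (0.0096). With 1 array left out, Frem1 ran from -0.013 to 0.012. The cause of these changes was not tested.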
